A study of Mus musculus with 15 samples.

Results

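The collagens are the structural proteins of the extracellular matrix, and the 44 genes whose symbols have the form Col, number, a, number were taken from the 21851 genes of the expression table. Of these 44 genes, 20 reached at least 1 FPKM in at least 5 libraries and were tested, and 24 did not. FPKM counts the fragments of a gene per kilobase of its transcript, relative to the size of the library. Expression was measured by stranded mRNA sequencing of whole tumour blocks grown from MC38, a mouse colon adenocarcinoma line, in mice of the strain the line came from. All 15 tumours came from the same wild-type line. The mice had been injected intravenously with vehicle (5 tumours), with anti-PD-1 antibodies (5 tumours), or with BG136 plus anti-PD-1 antibodies (5 tumours, the combination). Anti-PD-1 antibodies block an inhibitory receptor of T cells, and BG136 is a soluble β-glucan, a class of polysaccharide that innate immune cells recognise. No tumours given BG136 alone were analysed here, so each contrast of the combination with vehicle holds both agents.

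Collagen chains assemble into a triple helix inside the cell, and the assembled proteins fall into classes by what they build outside it. The fibrillar collagens form the rope-like fibrils that give tissue its tensile strength. The network collagens form basement membranes and other sheets, type VI forms beaded filaments around cells, and the FACIT collagens sit on the surface of fibrils. In solid tumours much of this matrix is laid down by fibroblasts and pericytes, and tumour cells can contribute to it.

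The cells were labelled as colon adenocarcinoma cells. The 8 epithelial genes checked summed to 1.02 to 7.29 FPKM in the vehicle tumours, 1.15 to 20.5 in the anti-PD-1 tumours and 2.98 to 28.9 in the combination tumours. Among them Cdx2, a transcription factor of the intestinal epithelium, was listed at 0 in every library, and Epcam, a general epithelial surface marker, reached at most 3.82 FPKM. The total of all FPKM values lay between 377509 and 424899 per library. The table holds no read counts, and the absolute depth is unknown. Relative to vehicle replicate 1, the depth read from the steps between low values was 0.833 to 1.07, with no clear step in combination replicate 4.

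The combination tumours differed from the vehicle tumours in 15 of the 20 tested collagens, and the changes went both ways. Messages of type I, VIII, XII, XIV, XV and XVIII collagen rose (8 genes), while messages of type III, VI, VII and XVI collagen and the α1 chain of type V fell (7 genes). The remaining 5 genes (Col4a1, Col4a2, Col5a2, Col5a3 and Col27a1) did not pass the test. A gene passed where its Benjamini-Hochberg adjusted p, from limma over all 11311 tested genes on log2(FPKM + 1), was below 0.05. By the same test 40.5% of all genes passed in this comparison, 16.6% as higher and 23.9% as lower, against 75% of the tested collagens. The median log2 change of the 20 collagens was 0.05, and that of all tested genes was -0.05. The ranges of the 5 combination and the 5 vehicle tumours did not overlap in 7 of the 8 collagens that rose and 6 of the 7 that fell, and they did not overlap in 24% of all tested genes, 9.38% as higher and 14.7% as lower. Col8a2, which is in these counts as higher, reached the level needed for testing only in treated tumours.

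**Figure D1:**
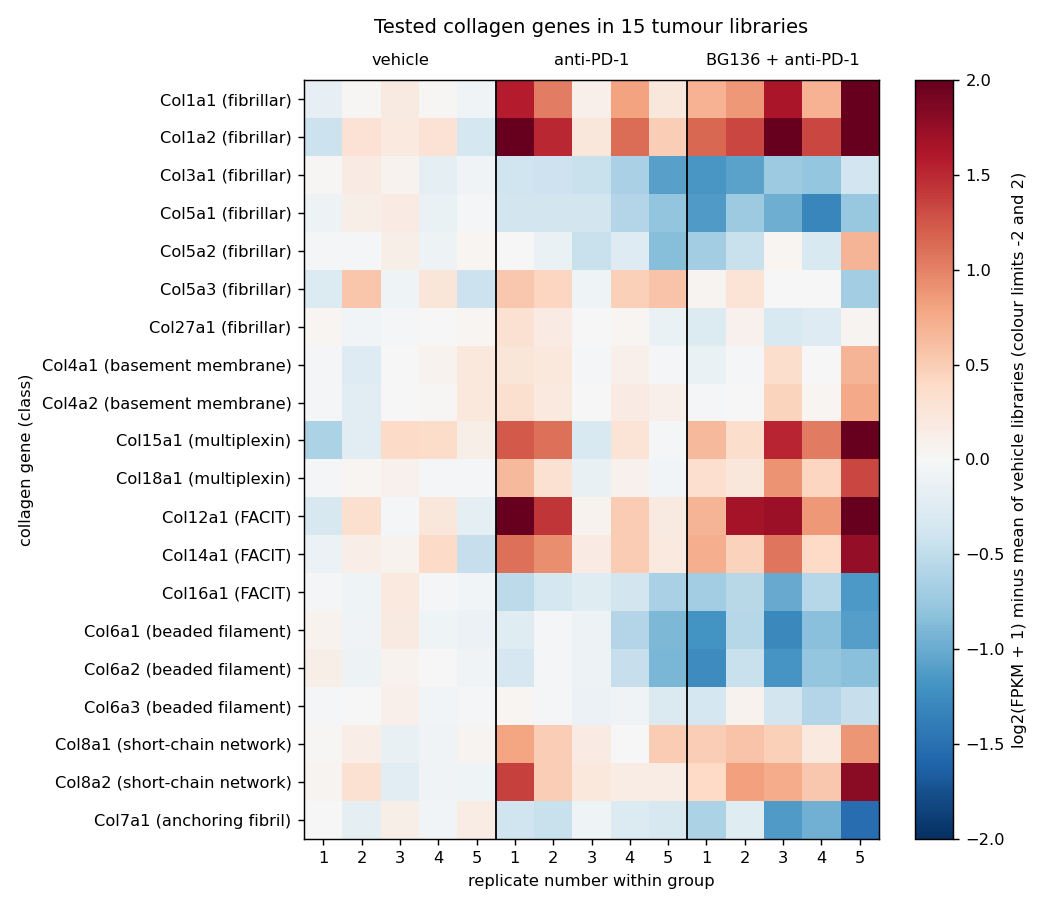
Level of each of the 20 tested collagens in each of the 15 libraries, as the difference in log2(FPKM + 1) from the mean of the vehicle tumours (red higher, blue lower, colours limited at -2 and 2), with genes in rows by class and libraries in columns by group. Col1a1, Col1a2 and Col12a1 are above the vehicle mean in all 5 combination tumours and Col5a1, Col6a1 and Col16a1 are below it in all 5.

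In this bulk tissue, fewer cells of a type and less RNA per cell cannot be told apart. Markers of several cell types were also higher in the combination tumours than in the vehicle tumours. All 6 tested T cell markers rose, 6 of 7 macrophage markers, 7 of 8 endothelial markers and 4 of the 6 tested pericyte and smooth muscle markers, and none of these fell, where 16.6% of all genes rose. The summed macrophage markers were 1282 to 1651 FPKM in vehicle, 1858 to 2224 in anti-PD-1 and 1896 to 4496 in combination tumours. The summed pericyte and smooth muscle markers were 27.7 to 38.6, 45.3 to 72.0 and 55.6 to 173 FPKM in the same order, and the summed endothelial markers 34.7 to 51.2, 42.5 to 65.3 and 50.0 to 125. Fibroblast markers were split, with 5 of 10 higher (Pi16, Lum, Thy1, Mfap5 and Fap) and 2 lower (Pdgfra and Dpt). Their sum was 310 to 452 FPKM in vehicle, 289 to 386 in anti-PD-1 and 280 to 505 in combination tumours. The summed T cell markers were 15.1 to 30.4, 32.3 to 48.7 and 46.6 to 166 FPKM. No marker of these 5 lists was at 0 throughout a group. Adipocyte markers summed to 8.33 to 229, 50.3 to 307 and 29.6 to 317 FPKM and skeletal muscle markers to 0.926 to 203, 33.4 to 169 and 0.918 to 192, so that the ranges of the 3 groups overlapped for both. Of these, 1 of the 7 tested adipocyte markers rose (Lpl) and none of the 9 tested muscle markers passed. Among other markers tested, 1 of 2 Schwann cell markers (Mbp), 1 of 5 epithelial markers (Krt18) and the 1 cartilage and bone marker (Sox9) rose. The bone markers Ibsp and Bglap were at 0 in every tumour. The part of these cell types in the collagen changes was not tested.

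Combination replicates 3 and 5 had the highest macrophage, endothelial and pericyte sums of their group. They were also the 2 highest of their group for Col1a1, Col1a2, Col12a1, Col14a1, Col15a1 and Col18a1. Leaving them out therefore had to lower the rises of these genes, and it also made the group smaller. Without these 2 tumours 10 collagens passed the test against vehicle, 3 as higher (Col1a1, Col1a2 and Col8a1) and 7 as lower, and 3189 of the 11311 genes passed, 1323 as higher and 1866 as lower. Col8a2, Col12a1, Col14a1, Col15a1 and Col18a1 no longer passed as higher, Col6a3 no longer passed as lower, and Col5a2 then passed as lower.

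The promoters of 4 genes are shown as examples. Col1a2 and Col3a1 changed in opposite directions. Col4a1 and Col4a2, which passed in no comparison, are read in opposite directions from start sites 21 bases apart. Sequences and positions are from RefSeq on the mouse build GRCm38.p6, which is not the build of the expression table (GRCm39). Each runs from 250 bases before to 50 bases after the start, 5′ to 3′ on the gene's own strand. Capitals mark matches to the CCAAT box, the TATA box searched as TATAAA, and the GC box searched as GGGCGG, on either strand. A match was taken at any distance from the start site, so it need not be a working promoter element. On the other strand a CCAAT box reads ATTGG, and a GC box there reads CCGCCC. The factors known to recognise these boxes are the CCAAT-binding factor, the TATA-binding protein and Sp1, and their binding here was not tested.
Col1a2, chr6:4505368-4505667, plus strand: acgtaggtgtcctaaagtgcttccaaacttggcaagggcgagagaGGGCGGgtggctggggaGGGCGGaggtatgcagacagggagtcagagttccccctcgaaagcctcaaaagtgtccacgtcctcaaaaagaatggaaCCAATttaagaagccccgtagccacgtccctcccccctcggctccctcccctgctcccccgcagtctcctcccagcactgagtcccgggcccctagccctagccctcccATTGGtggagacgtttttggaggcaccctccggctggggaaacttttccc
Col3a1, chr1:45311288-45311587, plus strand: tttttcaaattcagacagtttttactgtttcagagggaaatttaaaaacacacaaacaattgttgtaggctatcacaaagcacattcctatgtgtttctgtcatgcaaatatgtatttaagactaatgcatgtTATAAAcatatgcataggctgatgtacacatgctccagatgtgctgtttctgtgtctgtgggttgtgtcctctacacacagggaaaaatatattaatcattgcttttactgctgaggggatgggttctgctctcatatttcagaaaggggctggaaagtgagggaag
Col4a1, chr8:11312777-11313076, minus strand: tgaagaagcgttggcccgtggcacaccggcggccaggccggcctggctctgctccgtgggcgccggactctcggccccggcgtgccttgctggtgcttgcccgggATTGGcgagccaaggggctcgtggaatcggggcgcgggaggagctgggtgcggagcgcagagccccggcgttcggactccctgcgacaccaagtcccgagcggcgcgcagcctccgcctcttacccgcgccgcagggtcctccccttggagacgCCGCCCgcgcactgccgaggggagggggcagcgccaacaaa
Col4a2, chr8:11312555-11312854, plus strand: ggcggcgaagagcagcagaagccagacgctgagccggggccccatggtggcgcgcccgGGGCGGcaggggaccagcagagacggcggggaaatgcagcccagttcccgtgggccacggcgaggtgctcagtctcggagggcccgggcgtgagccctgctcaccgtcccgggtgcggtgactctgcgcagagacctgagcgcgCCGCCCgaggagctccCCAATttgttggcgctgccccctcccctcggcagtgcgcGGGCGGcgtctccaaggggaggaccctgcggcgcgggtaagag

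A promoter sequence of this kind was matched for 35 of the 44 collagens and for 16 of the 20 tested ones. Of the 16, a CCAAT match was found in 7, a GC box match in 12 and a TATAAA match in 1, which was Col3a1. Counted per gene in the same way, 27025 genes had promoter windows of the same length. Of these, 41.1% held a CCAAT match, 38.2% a GC box match and 15.7% a TATAAA match. Those genes were not limited to the ones tested here, so the shares are a rough background only. The Col1a2 window held 2 CCAAT matches, 2 GC box matches and no TATAAA match, and the Col3a1 window held only its TATAAA match. The windows of Col15a1 and Col6a1 held no match to any of these boxes. The windows of Col4a1 and Col4a2 share 78 bases.

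Among the fibrillar collagens, which include 11 genes of which 7 were tested, both chains of type I rose in the combination tumours and Col3a1 and Col5a1 fell. Type I collagen, built from the chains encoded by Col1a1 and Col1a2, is the main collagen of skin, tendon and bone. In the values that follow, the 5 tumours of each group are given in the order of replicates 1 to 5. Col1a1 was listed at 85.9, 98.7, 109, 98.6 and 92.0 FPKM in vehicle, at 289, 197, 103, 170.2 and 114 in anti-PD-1 and at 157, 177, 302, 158 and 536 in combination tumours. All 5 combination tumours were above all 5 vehicle tumours, and combination replicate 5 stood highest. The means ± SD were 96.9 ± 8.79 FPKM in vehicle and 266 ± 163 in combination (n = 5 each), with a log2 change of 1.27 ± 0.32 (SE) and an adjusted p of 0.00700. Without combination replicates 3 and 5 the log2 change was 0.75 (adjusted p = 0.0376).

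Col1a2 was listed at 46.3, 76.9, 71.7, 76.8 and 48.8 FPKM in vehicle, at 268, 179, 73.5, 137 and 88.8 in anti-PD-1 and at 139, 159, 257, 159 and 497 in combination tumours. Here too the combination and vehicle tumours did not overlap, and the order of the tumours resembled that of Col1a1, with anti-PD-1 replicate 1 and combination replicate 5 the highest of their groups. The mean was 242 ± 149.5 FPKM in combination against 64.1 ± 15.3 in vehicle, a log2 change of 1.76 ± 0.37 (adjusted p = 0.00226). In the anti-PD-1 tumours the log2 change from vehicle was 1.09 ± 0.37 for Col1a2 (adjusted p = 0.0969) and 0.75 ± 0.32 for Col1a1 (adjusted p = 0.183), and neither passed the test with all 3 groups in the fit. Anti-PD-1 replicate 3 was within the vehicle range for both genes.

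Type III collagen, made of Col3a1 chains alone, shares fibrils with type I in skin, vessels and healing wounds. Col3a1 was listed at 914, 1014, 949.8, 792 and 865 FPKM in vehicle, at 688, 679.6, 666, 575 and 427 in anti-PD-1 and at 405, 428, 546, 527 and 693 in combination tumours. Every vehicle tumour was above every anti-PD-1 tumour and every combination tumour, and the treated groups overlapped each other. The level fell from 907 ± 84.1 FPKM in vehicle to 607 ± 111 in anti-PD-1 and 519.8 ± 114 in combination tumours. The log2 change was -0.60 ± 0.15 for anti-PD-1 (adjusted p = 0.0336) and -0.82 ± 0.15 for the combination (adjusted p = 9.47e-04).

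Type V collagen is a minor fibril component that helps to start fibrils and to limit their width, and its 3 genes did not give the same result. Col5a1 was listed at 98.8, 115, 119, 96.3 and 104 FPKM in vehicle, at 82.1, 81.9, 82.1, 70.5 and 61.3 in anti-PD-1 and at 47.6, 63.4, 53.5, 42.5 and 62.6 in combination tumours. All vehicle tumours were above all treated tumours, and the anti-PD-1 and combination ranges overlapped only narrowly. The log2 change was -0.98 ± 0.11 in the combination (adjusted p = 6.51e-05) and -0.49 ± 0.11 in anti-PD-1 tumours (adjusted p = 0.0229).

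Col5a2, the α2 chain of type V, was listed at 43.5, 43.1, 48.1, 40.9 and 45.1 FPKM in vehicle, at 44.3, 40.1, 32.2, 36.9 and 24.1 in anti-PD-1 and at 26.8, 31.97, 45.1, 35.3 and 71.5 in combination tumours. Its combination values ran from below every vehicle tumour to above all of them, and the log2 change was -0.15 ± 0.21 (adjusted p = 0.599). Without combination replicates 3 and 5 it was -0.49 and passed the test (adjusted p = 0.0284). Col5a2 lies next to Col3a1 on chromosome 1. Col5a3, the α3 chain, was 39.8 to 79.0 FPKM in vehicle, 50.6 to 79.9 in anti-PD-1 and 33.0 to 65.1 in combination tumours, with a log2 change of -0.07 ± 0.20 in the combination (adjusted p = 0.802). Col27a1, a fibrillar collagen best known from cartilage, stayed between 0.819 and 1.77 FPKM in the 15 tumours, and its log2 change in the combination was -0.14 ± 0.10 (adjusted p = 0.284).

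**Figure D2:**
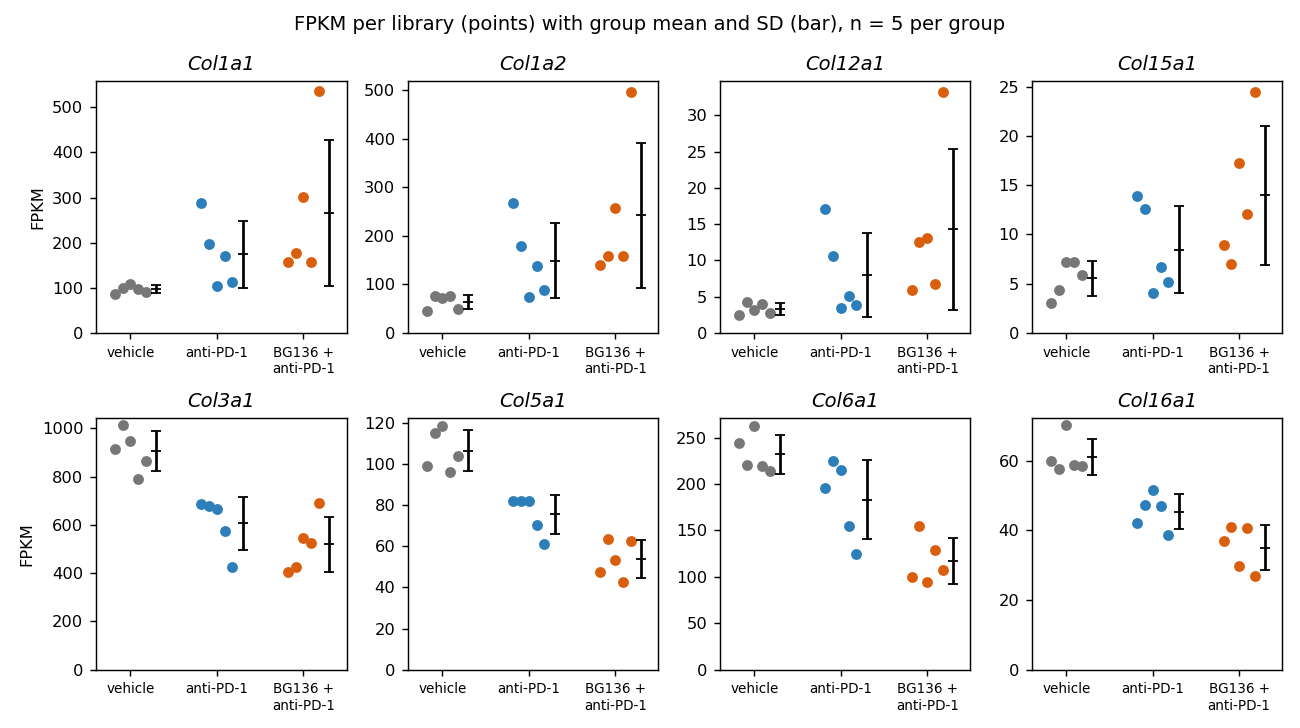
FPKM of 8 collagens in the 15 tumours, 1 panel per gene, with 1 point per tumour, the group mean as a bar and the SD as whiskers. Col1a1, Col1a2 and Col12a1 are higher in all combination tumours than in all vehicle tumours, Col15a1 overlaps in 1 combination tumour (7.04 FPKM, against 7.22 in the highest vehicle tumour), and Col3a1, Col5a1, Col6a1 and Col16a1 are lower without overlap.

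Type VI collagen forms beaded filaments that link cells to the surrounding matrix, from chains encoded by Col6a1, Col6a2 and Col6a3, and all 3 fell in the combination tumours. Col6a1 was listed at 244, 220.4, 263, 219 and 214 FPKM in vehicle, at 195, 225, 215, 154 and 124 in anti-PD-1 and at 100.3, 155, 94.3, 129 and 108 in combination tumours. Every combination tumour except replicate 2 was below every vehicle and anti-PD-1 tumour apart from anti-PD-1 replicate 5, and the combination and vehicle groups did not overlap. The log2 change from vehicle was -0.997 ± 0.16 (adjusted p = 4.45e-04).

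Col6a2, the neighbour of Col6a1 on chromosome 10, was listed at 94.1, 81.0, 91.1, 86.1 and 82.4 FPKM in vehicle, at 68.9, 85.4, 80.6, 62.5 and 45.8 in anti-PD-1 and at 35.7, 63.4, 37.9, 50.2 and 48.4 in combination tumours. The order of the tumours within the combination group began with replicate 2, as for Col6a1, and the log2 change from vehicle was -0.90 ± 0.16 (adjusted p = 9.03e-04). Col6a3, which encodes the largest of the 3 chains, was listed at 108, 109.5, 118, 106 and 107 FPKM in vehicle, at 113, 107, 102, 105 and 90.0 in anti-PD-1 and at 85.5, 116, 84.6, 72.9 and 79.7 in combination tumours. It fell with a log2 change of -0.34 ± 0.10 (adjusted p = 0.0134), and combination replicate 2 lay within the vehicle range. Without combination replicates 3 and 5 the change in Col6a3 was -0.29 and did not pass the test (adjusted p = 0.0732). In the anti-PD-1 tumours the log2 changes were -0.37 ± 0.16 for Col6a1, -0.37 ± 0.16 for Col6a2 and -0.09 ± 0.10 for Col6a3, and none passed (adjusted p = 0.181, 0.193 and 0.609).

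The FACIT collagens, which bind to fibrils without forming fibrils themselves, have 9 genes, of which 3 were tested, and these moved in both directions. Col12a1 encodes a FACIT found in dense connective tissue under load. Col12a1 was listed at 2.43, 4.33, 3.19, 4.01 and 2.75 FPKM in vehicle, at 17.1, 10.6, 3.49, 5.07 and 3.87 in anti-PD-1 and at 5.87, 12.5, 13.0, 6.81 and 33.2 in combination tumours. The combination and vehicle tumours did not overlap, but combination replicate 5 stood far above the rest of its group and anti-PD-1 replicate 1 was above 4 of the 5 combination tumours. The mean was 14.3 ± 11.0 FPKM in combination and 3.34 ± 0.811 in vehicle, a log2 change of 1.58 ± 0.42 (adjusted p = 0.00910). Without combination replicates 3 and 5 the change was 1.07 and did not pass (adjusted p = 0.0573).

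Col14a1 encodes a related FACIT that takes part in fibril growth. Col14a1 was listed at 3.45, 4.32, 4.07, 5.33 and 2.53 FPKM in vehicle, at 9.43, 8.24, 4.41, 5.90 and 4.55 in anti-PD-1 and at 7.07, 5.65, 9.15, 5.40 and 15.5 in combination tumours. The lowest combination tumour was only just above the highest vehicle tumour, and the log2 change was 0.88 ± 0.25 (adjusted p = 0.0133), or 0.53 without combination replicates 3 and 5 (adjusted p = 0.0880). Col16a1, a FACIT found with small fibrils and near basement membranes, was listed at 60.0, 57.6, 70.2, 58.9 and 58.5 FPKM in vehicle, at 42.2, 47.3, 51.5, 47.1 and 38.7 in anti-PD-1 and at 37.0, 41.0, 29.6, 40.8 and 27.0 in combination tumours. It fell without overlap in both treated groups, with a log2 change of -0.80 ± 0.11 in the combination (adjusted p = 2.18e-04) and of -0.42 ± 0.11 in the anti-PD-1 tumours (adjusted p = 0.0408).

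The chains of the basement membrane network did not pass the test in any comparison. Type IV collagen is the sheet-forming collagen of all basement membranes, and its common form is made of the chains encoded by Col4a1 and Col4a2. Col4a1 was listed at 48.1, 40.5, 48.9, 51.5 and 56.6 FPKM in vehicle, at 58.1, 56.4, 47.9, 52.4 and 47.9 in anti-PD-1 and at 44.4, 47.8, 62.5, 48.8 and 79.0 in combination tumours. Col4a2 was listed at 41.2, 36.2, 41.7, 42.6 and 48.8 FPKM in vehicle, at 52.8, 48.4, 42.3, 46.9 and 44.9 in anti-PD-1 and at 40.9, 42.2, 57.2, 43.3 and 71.6 in combination tumours. The groups overlapped for both genes, and combination replicate 5 was the highest of all 15 tumours for both. The log2 change in the combination was 0.17 ± 0.13 for Col4a1 (adjusted p = 0.317) and 0.24 ± 0.13 for Col4a2 (adjusted p = 0.153). These values had SEs of 0.13, and the miss of the threshold does not show equal levels.

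The multiplexins, Col15a1 and Col18a1, are basement membrane collagens that carry sugar chains, and the end of the Col18a1 product is endostatin. Both rose in the combination tumours. Col15a1 was listed at 3.09, 4.39, 7.22, 7.19 and 5.87 FPKM in vehicle, at 13.9, 12.6, 4.10, 6.66 and 5.16 in anti-PD-1 and at 8.97, 7.04, 17.3, 12.0 and 24.5 in combination tumours. Combination replicate 2 lay within the vehicle range, the other 4 combination tumours were above it, and the log2 change was 1.12 ± 0.34 (adjusted p = 0.0189). This call was lost without combination replicates 3 and 5 (log2 change 0.68, adjusted p = 0.147) and without vehicle replicate 1 (adjusted p = 0.0509).

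Col18a1 was listed at 5.81, 6.17, 6.36, 5.75 and 5.76 FPKM in vehicle, at 9.91, 7.63, 5.31, 6.41 and 5.69 in anti-PD-1 and at 7.77, 7.18, 12.0, 8.42 and 16.6 in combination tumours. All combination tumours were above all vehicle tumours, whose SD was 0.278 FPKM, and the log2 change was 0.65 ± 0.19 (adjusted p = 0.0137), or 0.33 without combination replicates 3 and 5 (adjusted p = 0.0839). Endothelial and pericyte marker sums were also highest in combination replicates 3 and 5, and the part of those cells in the Col15a1 and Col18a1 values was not tested.

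Type VIII collagen, from Col8a1 and Col8a2, forms hexagonal sheets in vessel walls and under the endothelium of the cornea, and both genes rose in the combination tumours. Col8a1 was listed at 18.7, 20.2, 16.4, 17.5 and 19.0 FPKM in vehicle, at 32.5, 26.3, 20.7, 18.5 and 26.4 in anti-PD-1 and at 26.1, 27.8, 25.9, 21.1 and 34.8 in combination tumours. Every combination tumour was above every vehicle tumour, with a log2 change of 0.52 ± 0.14 (adjusted p = 0.00821) that also passed without combination replicates 3 and 5 (0.42, adjusted p = 0.0462). Col8a2 was listed at 0.628, 0.937, 0.359, 0.497 and 0.472 FPKM in vehicle, at 3.03, 1.21, 0.814, 0.733 and 0.731 in anti-PD-1 and at 1.05, 1.77, 1.61, 1.28 and 4.49 in combination tumours. Its levels were low, with the vehicle tumours all below 1 FPKM, and the log2 change of 0.86 ± 0.26 (adjusted p = 0.0174) understates the ratio of the means because of the pseudocount. Col8a2 reached 1 FPKM in 7 tumours, all of them treated. It was therefore tested only because of the groups in which it was higher, and its call is no independent support for a rise. Without combination replicates 3 and 5 the change in Col8a2 was 0.58 and did not pass (adjusted p = 0.0809).

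Type VII collagen forms the anchoring fibrils that hold the basement membrane of skin to the tissue below. Its gene Col7a1 was listed at 23.0, 20.2, 25.4, 22.3 and 25.8 FPKM in vehicle, at 17.4, 16.8, 21.9, 19.1 and 18.4 in anti-PD-1 and at 14.7, 19.5, 10.04, 11.5 and 7.49 in combination tumours. It fell in the combination tumours, all of which were below all vehicle tumours, with a log2 change of -0.90 ± 0.17 (adjusted p = 0.00141). The 7 keratinocyte markers summed to 2.94 to 7.95 FPKM in vehicle, 1.85 to 11.1 in anti-PD-1 and 3.96 to 9.05 in combination tumours, with Krt1 and Dsg3 at 0 in every vehicle tumour and Krt1 at 0 in every combination tumour. The 1 marker of this list that was tested, Krt14, did not pass.

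**Figure D3:**
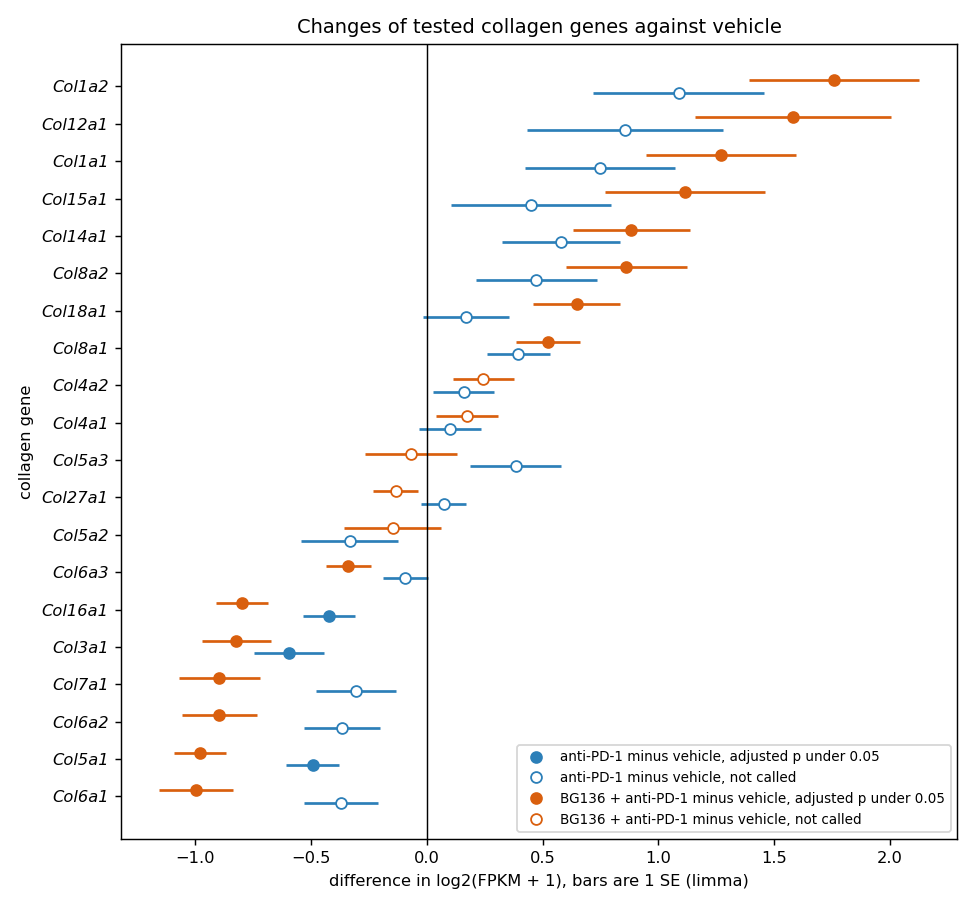
Difference in log2(FPKM + 1) from vehicle of the 20 tested collagens, in orange for the combination and in blue for anti-PD-1, as points with 1 SE as whiskers and with filled points for genes that passed the test. Of the filled orange points 8 lie to the right of 0 and 7 to the left, and the 3 filled blue points (Col3a1, Col5a1 and Col16a1) lie to the left.

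When the tumours given anti-PD-1 alone were compared with vehicle, 3 of the 20 collagens passed: Col3a1, Col5a1 and Col16a1, all lower. Over all genes 5.55% passed in this comparison, 3.34% as lower, against 15% of the tested collagens. The median log2 change was 0.13 for the 20 collagens and 0.01 for all tested genes. The same 3 collagens were those whose anti-PD-1 and vehicle ranges did not overlap, and none was higher without overlap, where 13.7% of all tested genes did not overlap, 7.09% as higher and 6.63% as lower. Both comparisons against vehicle use the same vehicle tumours, so their results for a gene are not independent. These 3 calls depended on which tumours were in the fit. No collagen passed without vehicle replicate 2, 3 or 5 or without anti-PD-1 replicate 4 or 5, and 1 passed without vehicle replicate 1. With each tumour left out in turn, the log2 change stayed between -0.65 and -0.47 for Col3a1, between -0.53 and -0.42 for Col5a1 and between -0.47 and -0.37 for Col16a1. With weights per group, with only those 2 groups in the fit, or without combination replicates 3 and 5, 3 collagens passed as higher in anti-PD-1 tumours: Col1a1 (adjusted p = 0.0336 to 0.0461), Col1a2 (0.0207 to 0.0343) and Col8a1 (0.0266 to 0.0493). With only those 2 groups Col7a1 also passed as lower (adjusted p = 0.0224), and Col1a2 also passed as higher without combination replicate 5 (adjusted p = 0.0358). In the first 3 of these fits more of all genes passed too (1793 to 2269, against 628 with all 15 tumours and equal weights).

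For the combination against anti-PD-1, the contrast that holds only the addition of BG136, none of the 20 collagens passed in limma, and 8 had an unadjusted p below 0.05, as did 3187 of all 11311 genes. The share of all genes that passed was 0.0619%, all of them lower. The smallest adjusted p among the collagens was 0.0790, shared by Col5a1 (log2 change -0.49 ± 0.11) and Col6a1 (-0.63 ± 0.16). Without combination replicate 2, which was highest of its group in 6 of the 7 collagens that fell against vehicle, 7 collagens passed against anti-PD-1, 6 of them lower (Col5a1, Col6a1, Col6a2, Col6a3, Col7a1 and Col16a1) and 1 higher (Col18a1). This tumour was the highest of its group in the same 6 genes and the lowest in Col18a1. Leaving it out therefore had to enlarge these differences. That alternative also raised the number of all genes that passed from 7 to 2224. The ranges of the combination and anti-PD-1 tumours overlapped in all 20 collagens, against 4.5% of all genes without overlap, 0.663% as higher and 3.84% as lower.

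Some tumours of the treated groups were at the same end of their group in most of the collagens that rose. Combination replicate 5 was the highest of its group in 8 of 8, and anti-PD-1 replicate 1 was the highest of its group in 8 of 8. Anti-PD-1 replicate 3 was the lowest of its group in 6 of these 8. The lowest combination tumour was replicate 1 in 4, replicate 2 in 2 and replicate 4 in 2, and the highest vehicle tumour was replicate 2 in 4, replicate 3 in 3 and replicate 4 in 1. Of the 7 collagens that fell, anti-PD-1 replicate 5 was the lowest of its group in 6. The collagens were sorted by calls that used the combination values, those of replicate 5 among them. How often the same tumours were highest or lowest over all genes is not given here.

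The summed FPKM of all 44 collagens overlapped between the 3 groups. The sum was 1920 ± 116 FPKM (SD, n = 5) in vehicle, 1693 ± 321 in anti-PD-1 and 1666 ± 470 in combination tumours. Col3a1 made up 47.2 ± 2.17% of the sum in vehicle, 36.0 ± 3.24% in anti-PD-1 and 31.7 ± 3.38% in combination tumours. The chains of type I made up 8.38 ± 1.06%, 18.5 ± 5.70% and 28.6 ± 8.64% in the same order. Type I shares ran from 22.1 to 42.1% in the combination tumours and from 6.99 to 9.75% in the vehicle tumours, so that these groups did not overlap. Type VI made up 22.4 ± 1.34%, 21.1 ± 2.43% and 16.1 ± 5.05%, and type IV 4.79 ± 0.766%, 6.01 ± 0.846% and 6.51 ± 0.393%. The 24 untested genes made up 0.130%, 0.203% and 0.260% of the sum on average. These shares are descriptions of the FPKM sum and were not tested.

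**Figure D4:**
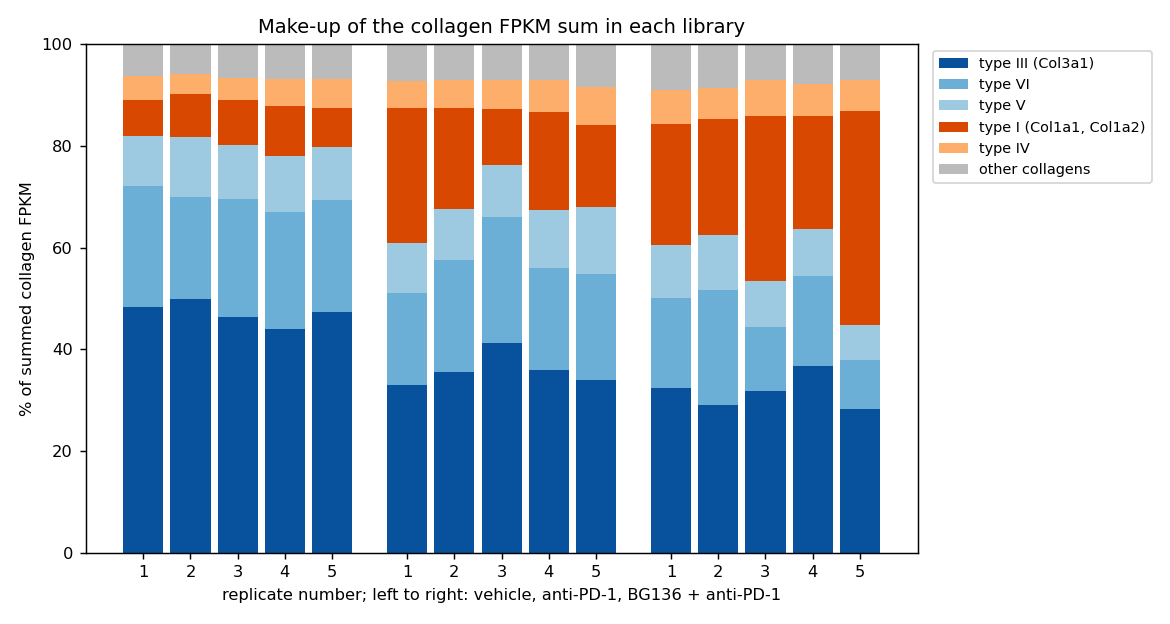
Share of the summed collagen FPKM taken by Col3a1 and by the genes of types I, V, VI and IV and all other collagens in each of the 15 tumours, as stacked bars that reach 100%. The share of type I is 6.99 to 9.75% in the vehicle tumours and 22.1 to 42.1% in the combination tumours, and that of Col3a1 is largest in the vehicle tumours.

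Ratios between 2 collagens within a tumour do not depend on how the libraries were scaled, and 3 such ratios were compared between the groups by exact two-sided permutation tests, 9 tests in all, adjusted by the Benjamini-Hochberg method over the 9. The Col3a1 to Col1a1 ratio in FPKM was 10.6, 10.3, 8.68, 8.04 and 9.40 in vehicle replicates 1 to 5, 2.39, 3.45, 6.45, 3.38 and 3.75 in the anti-PD-1 tumours and 2.58, 2.42, 1.81, 3.34 and 1.29 in the combination tumours. All vehicle tumours were above all treated tumours, and anti-PD-1 replicate 3 was closest to them. The mean log2 ratio was 3.23 ± 0.17 (SD) in vehicle, 1.88 ± 0.52 in anti-PD-1 and 1.12 ± 0.52 in combination tumours. The difference from vehicle was -2.10 for the combination (exact permutation p = 0.00794, adjusted p = 0.0238) and -1.35 for anti-PD-1 (exact permutation p = 0.00794, adjusted p = 0.0238), where 0.00794 is the smallest p that 5 against 5 tumours can give. The combination and anti-PD-1 groups differed by -0.76, which did not pass (exact permutation test, adjusted p = 0.0833) but did without anti-PD-1 replicate 1 (-0.91, adjusted p = 0.0357). That tumour had the lowest ratio of its group, so leaving it out had to widen the difference. Without combination replicates 3 and 5 the difference between combination and vehicle was -1.76 and missed the threshold (exact permutation test, adjusted p = 0.0804), where the smallest unadjusted p is 0.0179.

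The chains of type I did not stay in 1 ratio. The Col1a1 to Col1a2 ratio was 1.86, 1.28, 1.53, 1.28 and 1.88 in the vehicle tumours, 1.08, 1.10, 1.41, 1.24 and 1.28 in the anti-PD-1 tumours and 1.13, 1.11, 1.17, 0.990 and 1.08 in the combination tumours. The combination values lay below all vehicle values and close together. The mean log2 ratio fell from 0.63 ± 0.27 (SD) in vehicle to 0.13 ± 0.09 in the combination, a difference of -0.50 (exact permutation p = 0.00794, adjusted p = 0.0238). This call was lost when any 1 combination tumour was left out (difference -0.52 to -0.46, exact permutation test, adjusted p = 0.0536 to 0.0714). It was also lost without combination replicates 3 and 5 (difference -0.52, exact permutation test, adjusted p = 0.0893). The difference between anti-PD-1 and vehicle was -0.35 and did not pass (exact permutation test, adjusted p = 0.0714) but did without vehicle replicate 2 (-0.41, adjusted p = 0.0476). That tumour was below the mean of its group, so leaving it out had to widen the difference.

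The Col4a1 to Col4a2 ratio was 1.12 to 1.21 in the vehicle tumours, 1.07 to 1.17 in the anti-PD-1 tumours and 1.09 to 1.13 in the combination tumours. Its log2 difference from vehicle was -0.07 in the combination and -0.06 in anti-PD-1 tumours, and neither passed (exact permutation test, adjusted p = 0.0536 and 0.0918). Without vehicle replicate 2 both did (-0.087 and -0.077, exact permutation test, adjusted p = 0.0238 and 0.0429). That tumour had the lowest ratio of its group, so leaving it out had to widen both differences. Each difference passed in 1 of 10 runs with 1 tumour left out. The promoter windows of Col4a1 and Col4a2 share 78 bases, and any link of this to their ratio was not tested.

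**Figure D5:**
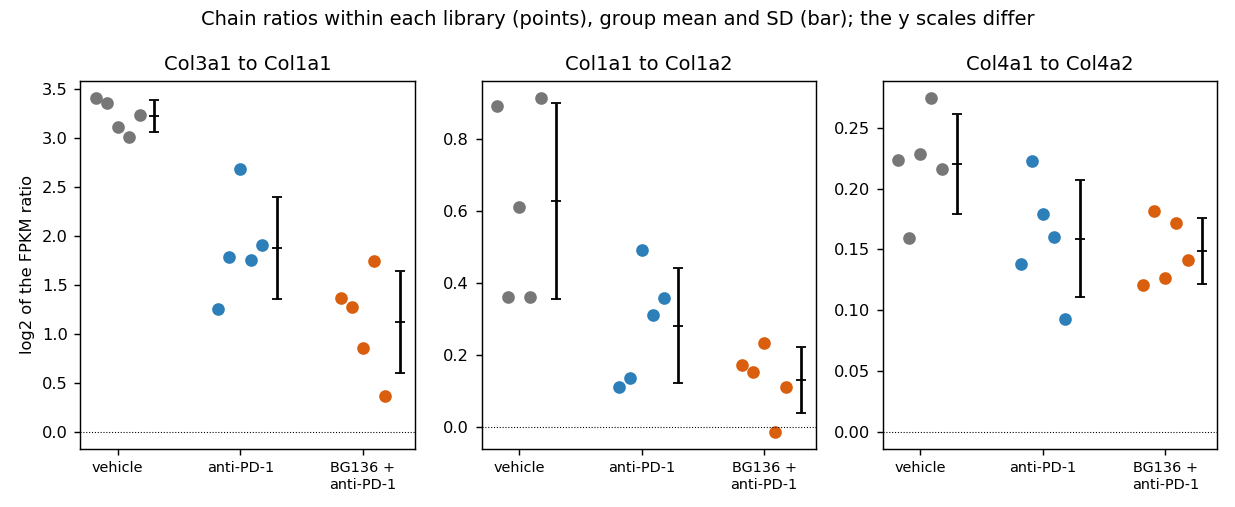
Log2 ratio of FPKM between 2 collagen genes in each tumour, 1 panel per ratio with its own scale, with 1 point per tumour and the group mean and SD as a bar. The Col3a1 to Col1a1 log2 ratio is 3.01 to 3.41 in the vehicle tumours and 0.37 to 2.69 in the treated tumours, the Col1a1 to Col1a2 ratio is lower in all combination than in all vehicle tumours, and the Col4a1 to Col4a2 ratio stays between 0.09 and 0.27 in all 15.

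The 24 untested collagens were low throughout. Of these, 22 never reached 1 FPKM in any tumour, and the other 2 were Col23a1, a transmembrane collagen that reached 1.81 FPKM in combination replicate 5, and Col11a1, a fibrillar collagen best known from cartilage that passed 1 FPKM in 2. The other fibrillar genes among them were Col2a1, the main collagen of cartilage, at no more than 0.0285 FPKM, Col11a2 and Col24a1. The rest were the 4 minor type IV genes (Col4a3 to Col4a6), 6 FACIT genes (Col9a1, Col9a2, Col9a3, Col19a1, Col20a1 and Col22a1), Col6a4 to Col6a6, the growth plate collagen gene Col10a1, the other transmembrane collagens (Col13a1, Col17a1 and Col25a1), Col26a1 and Col28a1. Without the filter on low values, 4 of the 24 passed in the combination against vehicle, where 5142 of 17698 genes did. Col11a2 (log2 change 0.17 ± 0.03), Col13a1 (0.21 ± 0.04) and Col23a1 (0.64 ± 0.16) were higher, and Col6a4 was lower (-0.31 ± 0.06). Col6a4 was also lower in anti-PD-1 than in vehicle tumours (-0.26 ± 0.06, adjusted p = 0.0404), the 1 gene of the 24 that passed there, where 546 of 17698 genes did. At these levels the pseudocount makes log2 changes much smaller than the ratios of the means.

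Genes that process collagen also moved in both directions. Of the 31 genes for folding, modifying, exporting, trimming and crosslinking collagen, 27 were tested, and in the combination tumours 5 rose and 14 fell, so that 70.4% passed against the 40.5% of all genes. Their median log2 change was -0.24. Their summed FPKM was 1878 to 2029 in vehicle, 1640 to 1797 in anti-PD-1 and 1479 to 1633 in combination tumours. P3h3, a member of the prolyl 3-hydroxylase family, fell from 32.2 ± 1.90 to 20.1 ± 1.66 FPKM, a log2 change of -0.65 ± 0.06 (adjusted p = 2.09e-05). P3h1, which hydroxylates selected prolines of the chains, went from 15.4 ± 1.11 to 11.5 ± 0.512 FPKM, a log2 change of -0.39 ± 0.05 (adjusted p = 1.04e-04). Serpinh1, the collagen chaperone HSP47, went from 441 ± 30.1 to 299.9 ± 25.8 FPKM, a log2 change of -0.56 ± 0.07 (adjusted p = 1.24e-04).

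P4ha1, a catalytic subunit of prolyl 4-hydroxylase, which stabilises the helix, also fell, with a log2 change of -0.49 ± 0.14 (adjusted p = 0.0111). The 5 that rose were Adamts2, which trims the ends of procollagens, the hydroxylase subunit gene P4ha3, and the crosslinking oxidase genes Lox, Loxl2 and Loxl4. Lox went from 6.70 ± 2.21 FPKM in vehicle to 15.8 ± 6.50 in combination tumours, which did not overlap, a log2 change of 1.09 ± 0.28 (adjusted p = 0.00759). In anti-PD-1 tumours 4 of the 27 passed against vehicle, with P3h3, P4ha2 and Serpinh1 lower and Loxl4 higher. That is 14.8%, against 5.55% of all genes, of which 3.34% passed as lower and 2.21% as higher. In the combination against anti-PD-1 none of the 27 passed, where 0.0619% of all genes did.

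Among 10 collagen receptor genes, 6 were tested, and in the combination tumours 3 fell (Mrc2, Ddr1 and Ddr2) and 1 rose (Lair1), where 23.9% of all genes fell and 16.6% rose. Mrc2, an endocytic receptor that takes up collagen for breakdown, went from 29.3 ± 2.56 to 15.1 ± 1.26 FPKM, a log2 change of -0.91 ± 0.08 (adjusted p = 8.14e-06). Lair1, an inhibitory collagen receptor of leukocytes, went from 7.51 ± 0.559 to 13.7 ± 3.50 FPKM, a log2 change of 0.76 ± 0.13 (adjusted p = 7.85e-04), in tumours in which 6 of the 7 macrophage markers were also higher. Of 10 collagen-cleaving proteases, 8 were tested, and 3 rose (Ctsk, Mmp2 and Fap) and 2 fell (Mmp9 and Mmp16), that is 62.5% against the 40.5% of all genes that passed. Mmp9, a gelatinase, went from 41.2 ± 9.44 to 10.4 ± 0.789 FPKM, a log2 change of -1.86 ± 0.21 (adjusted p = 6.10e-05). Mmp16, a membrane-bound protease, went from 3.97 ± 0.377 to 1.25 ± 0.263 FPKM, a log2 change of -1.14 ± 0.09 (adjusted p = 8.14e-06).

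Basement membrane partners of type IV collagen were tested for 10 of 16 genes. In the combination tumours 5 of these fell (Hspg2, Pxdn, Lamc1, Agrn and Lamb2), while Nid1 rose. Of all genes 23.9% fell in this comparison and 16.6% rose. Hspg2 encodes perlecan, a proteoglycan of basement membranes, and went from 73.2 ± 4.91 to 43.1 ± 5.80 FPKM, a log2 change of -0.76 ± 0.08 (adjusted p = 5.04e-05). Pxdn encodes peroxidasin, the enzyme that crosslinks type IV collagen, and went from 60.4 ± 4.11 to 40.0 ± 5.58 FPKM, a log2 change of -0.59 ± 0.08 (adjusted p = 2.00e-04). Among 11 fibril partners and matricellular genes, 10 were tested, of which 3 rose and 1 fell, a share of 40% that is close to the 40.5% of all genes. The gene that fell was Fn1, for fibronectin, a glycoprotein that helps to assemble the matrix, and it went from 663 ± 27.4 to 301 ± 62.7 FPKM, a log2 change of -1.16 ± 0.16 (adjusted p = 2.22e-04). Thbs2, a matricellular glycoprotein gene, rose with a log2 change of 0.41 ± 0.08 (adjusted p = 0.00211), and Thbs1 and Ctgf were the other two that rose. In anti-PD-1 tumours Mrc2 (of 6 tested receptors), Mmp9 and Mmp16 (of 8 proteases), Hspg2 (of 10 basement membrane partners) and Fn1 (of 10 fibril partners) passed as lower and Thbs2, also of the fibril partners, as higher. In that comparison 3.34% of all genes passed as lower and 2.21% as higher. None passed in the combination against anti-PD-1.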

How the data were processed

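Messenger RNA of 15 MC38 tumours was sequenced, 5 tumours per group, with 1 library each. Per the labels' protocols, total RNA was extracted and libraries were made with a stranded mRNA kit. The authors deposited 1 table of expression values per gene symbol, read here as FPKM. The values themselves, and the naming of Cufflinks in the submitters' processing notes, are the grounds for that unit. HISAT2, HTSeq, DESeq, Trimmomatic and the build GRCm39 stand in the same notes, and the versions and roles of the tools are not given in the sources used here.

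Of the 21878 entries, 27 with symbols turned into dates (at most 0.168% of a library's FPKM) were left out. Genes that reached 1 FPKM in 5 or more libraries (11311) were tested as log2(FPKM + 1), which understates changes of low genes. The test was limma 3.58.1 in R 4.3.3, with 3 group means over the 15 libraries, eBayes with a trend, two-sided, and Benjamini-Hochberg adjustment per comparison over all tested genes, at 0.05. Log2 changes are ± SE and levels ± SD. Within-tumour ratios were compared by exact permutation tests over tumours. FPKM is scaled per library to a total, so a change in a few abundant genes moves the others.

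Named with every value were the main chains of each class and every collagen past the threshold in any comparison. From the other gene lists, the 2 genes with the smallest p in the combination against vehicle, plus Lox, Serpinh1 and P4ha1, are named with means or log2 changes. Other genes of the lists are named with their direction only, and the result of 1 list member is not reported here. The members and lists were chosen with earlier results of these data known. Nothing says that the tumours came from separate mice, so p-values measure the spread between these samples. The library names carry prefixes that differ within the vehicle and the combination groups. The labels do not say what the prefixes mean, and they were not used in any fit. Alternatives were another pseudocount (0.1), other filters, median-ratio scaling, weights per group, the compared groups alone, the replicate number as a block, leaving out each tumour, leaving out combination replicates 3 and 5 and, chosen after seeing the data, leaving out anti-PD-1 replicates 1 and 2. The fit was also run on simulated data with known changes, as a check of the code that does not bear on the calls above. Promoter sequences are from RefSeq, GRCm38.p6, and give no coordinates of the deposited table.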

Additional observations from a re-analysis of the deposited data

Results flagged for a closer look

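Among 72 checks of a group's 5 tumours for 1 value far from the other 4 (gap over range above 0.71, which chance passes in about 1 in 20 groups), 6 stood out. In combination replicate 5, Col12a1 was 33.2 FPKM (the other 4 tumours 5.87 to 13.0) and Col8a2 was 4.49 (the others 1.05 to 1.77). In anti-PD-1 replicate 1, Col8a2 was 3.03 FPKM (the others 0.731 to 1.21). In anti-PD-1 replicate 3, Col5a3 was 50.6 FPKM, below the others (72.5 to 79.9). In vehicle replicate 3, Col16a1 was 70.2 FPKM (the others 57.6 to 60.0) and Col6a3 was 118 (the others 106 to 109.5).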

How the results depend on the processing

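For the combination against vehicle, the number of collagens that passed was 14 to 15 when each tumour was left out (all genes 3749 to 5204), and each of the 15 collagens kept its direction under every alternative run. Median-ratio scaling moved the median log2 change of all genes from -0.05 to -0.00 and the share of passing genes that were higher from 40.9% to 53.7%, with the collagens at 8 higher and 7 lower as before. For anti-PD-1 against vehicle, 628 genes and 3 collagens passed. The numbers were 347 and 1 with the replicate number as a block, 2269 and 6 with weights per group, 2100 and 7 with only those 2 groups, 1793 and 6 without combination replicates 3 and 5 (3 collagens higher in each of these), 30 and 0 without anti-PD-1 replicates 1 and 2, and 229 to 1121 and 0 to 4 when each tumour was left out. For the combination against anti-PD-1, 7 genes passed. With median-ratio scaling, the block, weights, only those 2 groups, without combination replicates 3 and 5 or without anti-PD-1 replicates 1 and 2, 0 did. When each tumour was left out, 0 to 2224 genes and 0 to 7 collagens passed.

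The log2 ratio differences kept their values under the replicate block, but its sign-flip test over 5 pairs cannot give a p under 0.0625. The sign-flip test gave an adjusted p of 0.141 for each ratio call of the main test. The calls for Col3a1 to Col1a1 (-2.10 for the combination and -1.35 for anti-PD-1 against vehicle) and Col1a1 to Col1a2 (-0.50) were therefore lost. They were -1.76 and -0.52 against vehicle without combination replicates 3 and 5, also not past the threshold. Leaving out each tumour gave -2.26 to -1.92, -1.55 to -1.19 and -0.91 to -0.55 for Col3a1 to Col1a1 (combination and anti-PD-1 against vehicle, then combination against anti-PD-1). It gave -0.56 to -0.43, -0.41 to -0.27 and -0.19 to -0.10 for Col1a1 to Col1a2, and -0.087 to -0.058, -0.078 to -0.046 and -0.026 to 0.0059 for Col4a1 to Col4a2. The last reversed without anti-PD-1 replicate 2 (0.0059).

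Reversed log2 changes, none past the threshold, were Col4a1 at -0.055 against vehicle and, against anti-PD-1, Col5a2 -0.15, Col4a1 -0.15, Col4a2 -0.15 and Col14a1 -0.050, all without combination replicates 3 and 5. Against anti-PD-1 without combination replicate 5, Col5a2 was -0.023, Col4a1 -0.053 and Col4a2 -0.044, and their highest values with 1 tumour left out were 0.32, 0.15 and 0.15. For anti-PD-1 against vehicle without anti-PD-1 replicates 1 and 2, Col15a1 was -0.026 and Col18a1 -0.037. The causes were not tested. Deviations of same-numbered tumours correlated at 0.04 to 0.29, -0.20 to 0.04 and -0.39 to -0.12 in the 3 comparisons, with 1, 0 and 0 of 5 tumours closest to their own number, so the numbers were not taken as pairs. The absolute depth is unknown, so the precision of low values could not be given.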
